A study of Homo sapiens with 2 samples.

Results

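The HOX cluster genes code for homeodomain transcription factors that stand side by side in 4 clusters, HOXA on chromosome 7, HOXB on chromosome 17, HOXC on chromosome 12 and HOXD on chromosome 2. Members were taken by symbol from the protein-coding genes of GENCODE on GRCh38, and 38 genes were examined of 19970 protein-coding genes in all: 10 each in HOXA and HOXB and 9 each in HOXC and HOXD. A peak was given to a gene if its summit lay in the gene body or within 1 kb of any annotated transcription start site (TSS) of the gene. Of 33349 peaks on chromosomes 1 to 22 and X, 32 were peaks of a HOX gene.

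The peaks mark H4R3me2a, asymmetric dimethylation of arginine 3 on histone H4, in HCT116, an established human colorectal carcinoma line. Chromatin of cross-linked, untreated cells gave 1 immunoprecipitation library made with an H4R3me2a antibody and 1 library of input DNA from the same line. There were no replicates, so the values below have no replicate check, no test between groups was possible, and the 95% intervals cover counting error only. Of 12 marker genes of intestinal epithelium, 5 had a promoter peak, led by KRT8, VIL1, KRT19 and LGALS4, as did 2 of 6 fibroblast, 2 of 4 endothelial and 2 of 5 blood genes. The share of all protein-coding genes, 31.6%, lay inside the interval of each list, and KRT18, KRT20, CDX2 and TFF3 had no peak. A peak is not a measure of expression, and these lists do not type the cells.

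HOX genes give cells their position along the body axis. Genes at one end of a cluster, the low-numbered paralogue groups, act in the head and neck region, and those at the other end, the high-numbered groups, act in the trunk, limbs, hindgut and genital tract. The clusters are textbook targets of the opposing Polycomb and Trithorax chromatin complexes. H4R3me2a is placed mainly by the arginine methyltransferase PRMT1 and is generally linked to active chromatin.

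At least 1 peak was found at 20 of the 38 HOX genes (52.6%, exact binomial interval 35.8 to 69.0%), against 47.2% of all protein-coding genes. A promoter peak, that is a summit within 1 kb of any TSS, was found at 14 (36.8%, 21.8 to 54.0%), against 31.6% of all. A summit within 1 kb of the 5' end of the gene itself was found at 8, against 19.2% of all. All 3 shares of HOX genes were close to the background, which lay inside the intervals of the first pair. HOX genes are short, however. The sequence in which a peak could be assigned had a median of 5.22 kb per HOX gene and 28.5 kb per protein-coding gene, and the median number of annotated TSSs was 2 against 5. Counted by sequence, HOX genes held 0.916 peaks per 10 kb (exact Poisson interval 0.627 to 1.29) and all protein-coding genes 0.195 (0.193 to 0.198).

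The difference was smaller relative to base composition. Given the rate at which windows of the same GC content held peaks over the genome, the HOX genes' 349 kb would have held 23.3 peaks. The observed 32 were 1.37 times that number (0.938 to 1.94), and all protein-coding genes were at 1.26 times theirs (1.25 to 1.28). When windows were also divided by CpG content, the ratios were 1.54 (1.05 to 2.17) for HOX genes and 1.27 for all. By these ratios, HOX genes did not differ from other genes beyond counting error. The part of base composition in the difference per 10 kb was not tested.

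The sequences that follow are those of 7 peaks, printed from the plus strand of GRCh38 with each CG dinucleotide in capitals. They are the peak of highest fold in each cluster, the next highest in HOXA, the HOX peak with the most CG dinucleotides around its summit and the one with the fewest. They show the span of CpG content among HOX peaks, which ran from 1 to 46 CG dinucleotides in the 400 bp centred on the summit.
Upstream of HOXA2, chr7:27103461-27103664: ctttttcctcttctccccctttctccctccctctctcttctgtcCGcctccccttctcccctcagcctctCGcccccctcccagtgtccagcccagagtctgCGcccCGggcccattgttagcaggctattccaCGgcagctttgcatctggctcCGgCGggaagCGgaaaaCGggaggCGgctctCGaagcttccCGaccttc
Upstream of HOXA9 and inside HOXA10, chr7:27175869-27176043: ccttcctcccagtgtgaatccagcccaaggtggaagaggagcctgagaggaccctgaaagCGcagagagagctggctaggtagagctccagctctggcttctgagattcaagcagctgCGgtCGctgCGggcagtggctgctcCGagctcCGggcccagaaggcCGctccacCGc
In HOXA7, the most CG dinucleotides, chr7:27156081-27156219: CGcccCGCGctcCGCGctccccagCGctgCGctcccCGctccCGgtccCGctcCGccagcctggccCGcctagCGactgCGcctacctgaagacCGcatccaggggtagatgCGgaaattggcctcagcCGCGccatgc
In HOXB9, chr17:48625289-48625467: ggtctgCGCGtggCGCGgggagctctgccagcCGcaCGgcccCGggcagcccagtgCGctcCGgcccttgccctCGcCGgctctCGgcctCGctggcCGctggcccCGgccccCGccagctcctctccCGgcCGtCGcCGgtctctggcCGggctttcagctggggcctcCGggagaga
In HOXB9, the fewest CG dinucleotides, chr17:48623331-48623475: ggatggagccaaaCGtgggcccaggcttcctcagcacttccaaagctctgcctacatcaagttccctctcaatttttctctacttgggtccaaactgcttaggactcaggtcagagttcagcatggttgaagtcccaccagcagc
In HOXC6, chr12:54004909-54005206: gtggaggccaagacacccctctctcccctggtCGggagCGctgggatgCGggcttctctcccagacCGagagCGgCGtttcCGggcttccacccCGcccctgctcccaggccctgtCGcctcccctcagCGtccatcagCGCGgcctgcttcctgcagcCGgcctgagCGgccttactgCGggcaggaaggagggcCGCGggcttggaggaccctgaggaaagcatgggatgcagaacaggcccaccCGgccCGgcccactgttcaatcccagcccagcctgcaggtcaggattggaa
In HOXD11, chr2:176105585-176105774: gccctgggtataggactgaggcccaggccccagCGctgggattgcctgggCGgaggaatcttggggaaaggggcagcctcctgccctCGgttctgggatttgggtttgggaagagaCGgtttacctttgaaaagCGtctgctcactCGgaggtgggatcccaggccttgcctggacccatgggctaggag
The peaks held 12, 8, 18, 22, 1, 19 and 6 CG dinucleotides in this order. The pair from HOXB9 lie in the same intron and differ most, with 22 in 179 bp and 1 in 145 bp.

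The question of how the 4 clusters compare was addressed by counting summits from the first to the last base of the listed genes. HOXB held 18 summits in 200 kb, HOXC 9 in 117 kb, HOXA 6 in 99.7 kb and HOXD 3 in 98.2 kb, so that HOXB had 50% of the 36 summits. Per 10 kb this was 0.899 in HOXB (0.533 to 1.42), 0.768 in HOXC (0.351 to 1.46), 0.602 in HOXA (0.221 to 1.31) and 0.306 in HOXD (0.0630 to 0.893), against 0.115 in the genome. HOXB, HOXC and HOXA were above the genome beyond counting error, at 7.85, 6.70 and 5.25 times its density, and HOXD, at 2.67 times (0.550 to 7.79), was not. None of the 6 pairs of clusters differed beyond counting error. The widest contrast, HOXB over HOXD, was 2.94 times with an interval of 0.859 to 15.6. With HOXB limited to HOXB1 to HOXB9 that contrast was 4.67 times (1.32 to 25.2), beyond counting error. Those with HOXA and HOXC were not, at 2.37 times (0.870 to 7.47) and 1.86 times (0.762 to 4.82). This cut a stretch poor in summits from HOXB alone, while HOXD kept its full length. These contrasts were computed over all peaks and not at stricter thresholds. The place of HOXB at the top depended on the threshold. Among peaks with a fold of 4 or more, HOXB held 0.449 per 10 kb, HOXA 0.602 and HOXC 0.512, and in the upper 50% of peaks by −log10 q the densities were 0.499, 0.501 and 0.512.

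**Figure D1:**
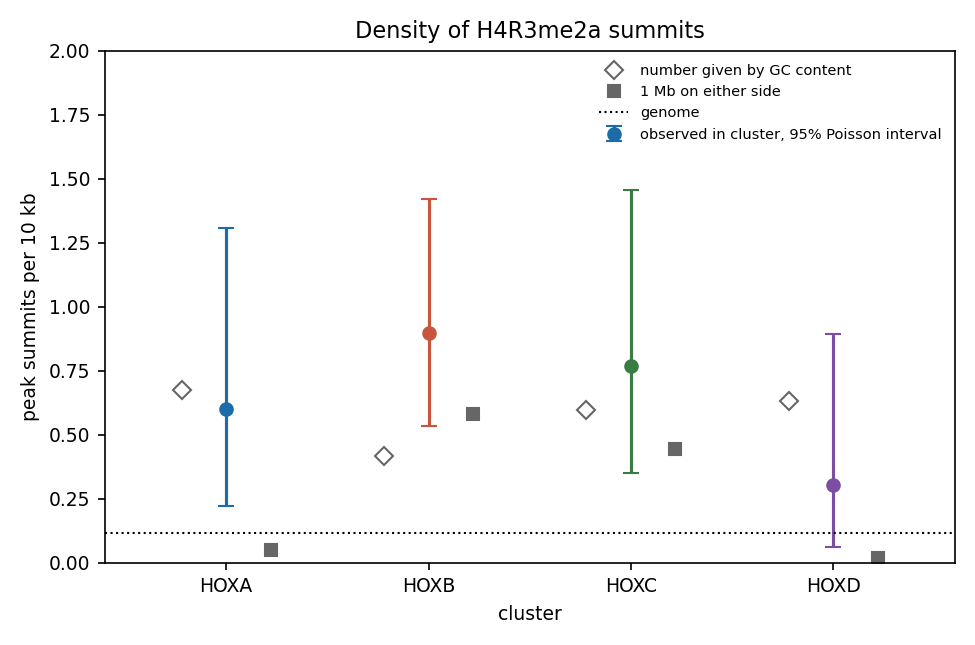
Summits per 10 kb (vertical axis) in each HOX cluster, with 95% exact Poisson intervals; open diamonds are the number given by GC content, squares the 1 Mb on either side, and the dotted line the genome. HOXB lies above its diamond and HOXD below it, and the squares of HOXB and HOXC stand far above those of HOXA and HOXD.

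Against the number given by GC content, HOXB had 2.15 times as many summits (1.28 to 3.401), HOXC 1.29 times (0.589 to 2.44), HOXA 0.892 times (0.327 to 1.94) and HOXD 0.484 times (0.100 to 1.41). Only the interval of HOXB left out 1. These ratios were computed over all peaks and not at stricter thresholds. The density of HOXB fell to 0.449 per 10 kb with a fold of 4 or more and to 0 with a −log10 q of 5 or more. The sequence around HOXB was also rich in peaks. The 1 Mb on either side of HOXB had 2.56 times the number given by GC content, and chromosome 17 as a whole 1.88 times. Around HOXC the flanks were at 2.28 times, around HOXA at 0.607 times and around HOXD at 0.464 times. The part of the chromosomal surroundings in the difference between clusters was not tested. Compared directly with its flanks, without regard to GC content, HOXA was 12.03 times as dense (3.59 to 36.5) and HOXD 15.3 times (2.24 to 90.3). HOXB was 1.55 times as dense as its flanks (0.887 to 2.56) and HOXC 1.73 times (0.764 to 3.43), so neither differed from them beyond counting error.

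Within HOXB the summits were not spread evenly. The 105 kb from HOXB1 to the end of the longest HOXB7 transcript held 15 of the 18 summits, or 1.43 per 10 kb (0.799 to 2.36). The remaining 91.2 kb up to HOXB13 held 3 summits, or 0.329 per 10 kb (0.0678 to 0.961), in sequence for which GC content gave 2.02.

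**Figure D2:**
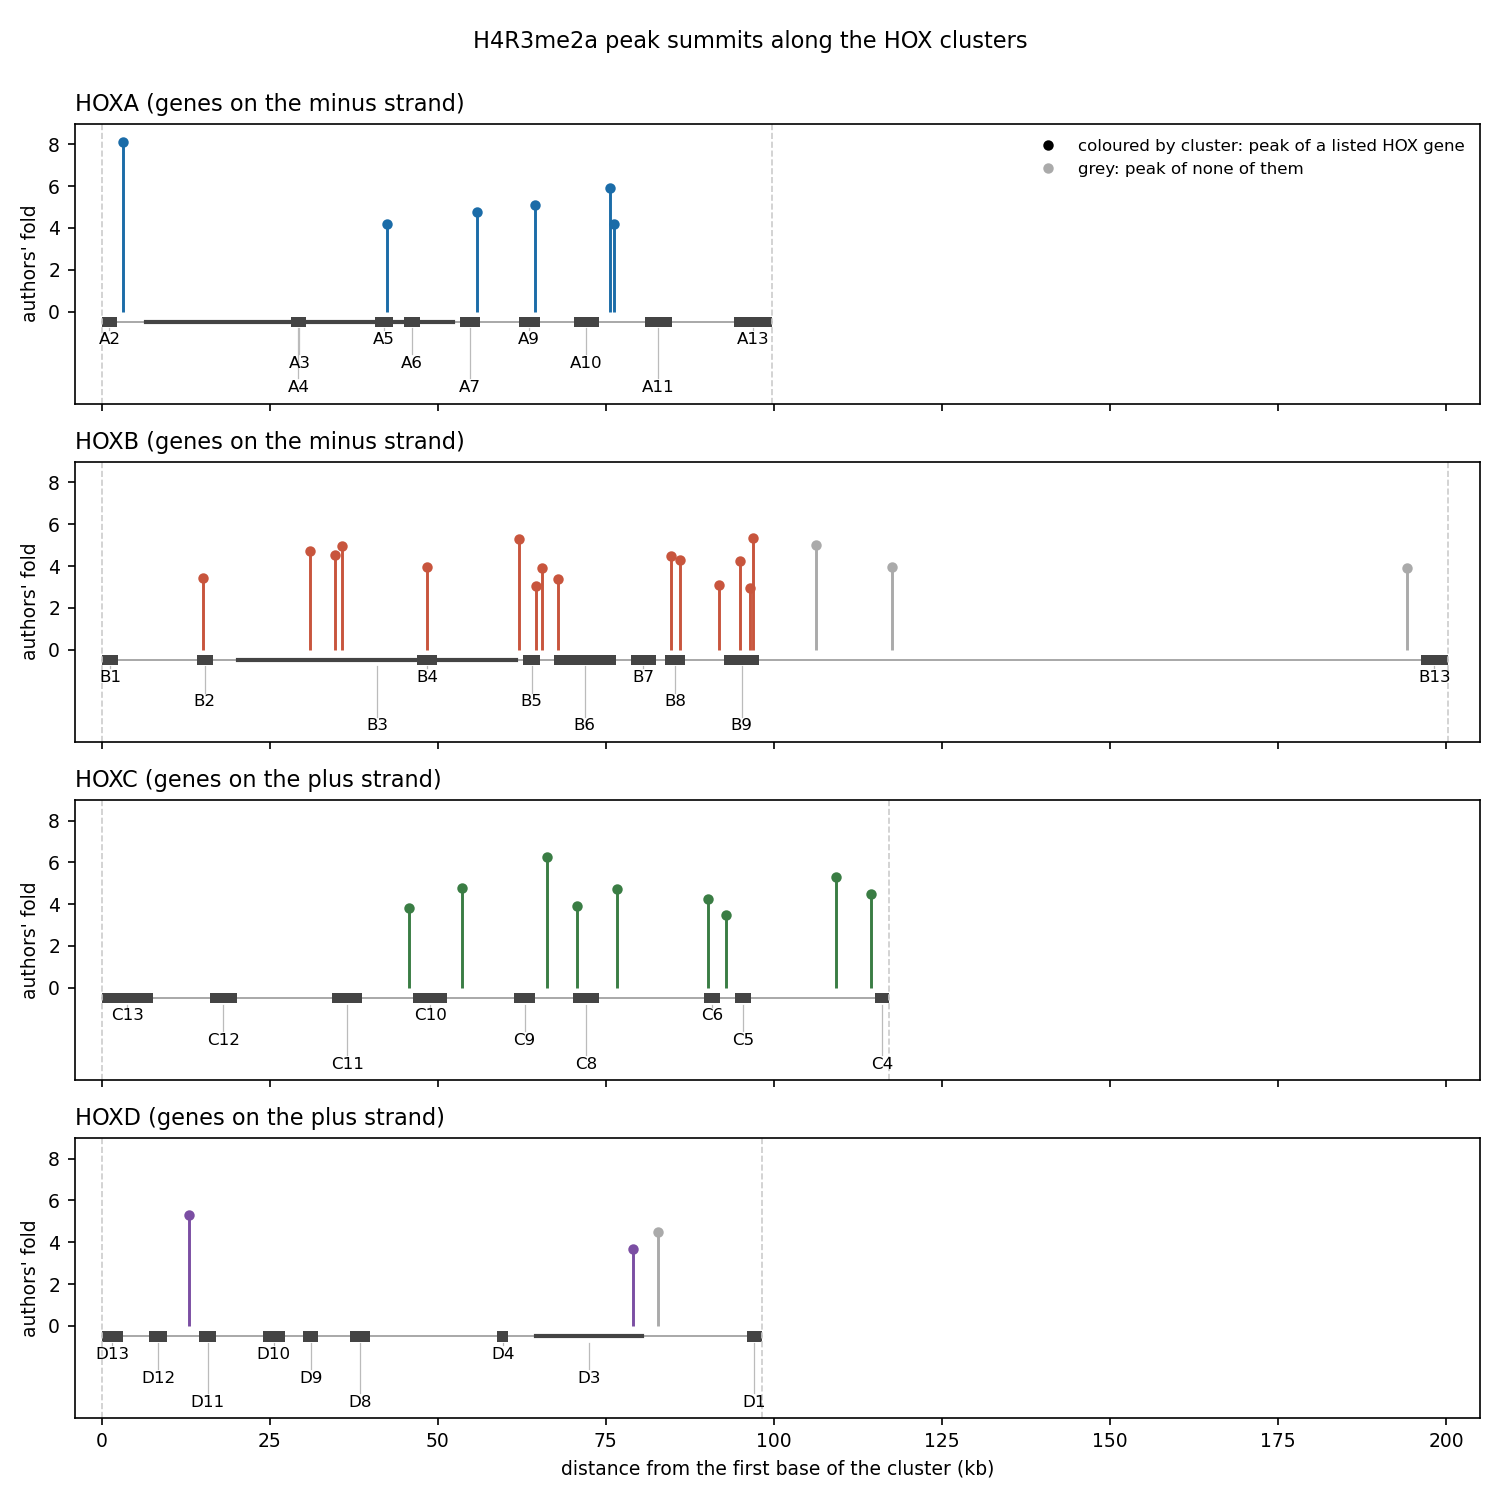
Peak summits along the 4 clusters, with the authors' fold enrichment as height and the distance from the first base of the cluster (kb) on the horizontal axis; dark bars are the canonical transcripts, named without the prefix HOX, and dashed lines the cluster limits. Summits are missing over HOXC13 to HOXC11 and over HOXD10 to HOXD4, and the 3 grey peaks between HOXB9 and HOXB13 belong to none of the genes.

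In HOXA, 6 of 10 genes had a peak (60.0%, 26.2 to 87.8%). Over all protein-coding genes the share was 47.2%, which lay inside the interval of each cluster. HOXA2, which patterns the hindbrain and second pharyngeal arch, had the HOX peak of highest fold, 8.11, from a pileup of 15 fragments over a background of 0.972. This peak (chromosome 7, 27103461 to 27103664) is ranked above 99.9% of all peaks by fold. Its summit lay 919 bp upstream of the start of HOXA2, just inside the 1 kb limit. HOXA5, a gene of lung development, had a peak in its intron (27142634 to 27142761, fold 4.199, 10 fragments), 20 bp downstream of an internal TSS and 926 bp downstream of its 5' end. HOXA3 was counted only through the same peak, because a long HOXA3 transcript spans HOXA5.

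The peak of HOXA7 lay in its coding sequence (27156081 to 27156219, fold 4.74, 9 fragments). Both peaks of HOXA9, a gene of blood progenitors that is often active in leukaemia, were at annotated promoters. One lay in its intron (27164716 to 27164915, fold 5.08, 10 fragments), and the other 830 bp upstream of the gene (27175869 to 27176043, fold 5.89, 11 fragments). The latter is also in the body of a long HOXA10 transcript, as is a further peak 578 bp away (27176410 to 27176598, fold 4.19, 7 fragments). HOXA10, a gene of the uterus and limb, thus had 2 peaks but none within 1 kb of its own TSSs. HOXA4, HOXA6, HOXA11 and HOXA13 had no peak. A stretch of 39.2 kb between the HOXA2 and HOXA5 peaks, which holds HOXA4, was free of summits.

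In HOXB, 8 of 10 genes had a peak, all but HOXB1 and HOXB13. HOXB2 had 1, in its coding sequence (chromosome 17, 48543568 to 48543694, fold 3.43, 10 fragments). HOXB3 had the most peaks of any HOX gene, 8, in a gene of 56043 bp. A run of 3 lay in an intron of HOXB3 (48559428 to 48559567, 48563135 to 48563351 and 48564269 to 48564411). Their folds were 4.73, 4.52 and 4.97 and their pileups 12, 11 and 13 fragments. The only promoter peak of HOXB3 (48590460 to 48590649, fold 5.28) had the highest pileup of the HOXB peaks, 14 fragments, and lay 351 bp upstream of a TSS. The other 4 peaks of HOXB3 were shared with HOXB4, HOXB5 or HOXB6, which overlap it.

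HOXB4, known from the expansion of blood stem cells, had its peak in coding sequence (48576955 to 48577224, fold 3.94, 11 fragments). HOXB5 had a peak in coding sequence (48593194 to 48593442, fold 3.05, 13 fragments) and another 310 bp upstream of the gene (48594004 to 48594131, fold 3.93, 13 fragments). The former combined 13 fragments with the highest background among the HOX peaks, 3.59. HOXB6 had the widest HOX peak, 344 bp with the summit in coding sequence (48596340 to 48596683, fold 3.37, 11 fragments).

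HOXB8 had 2 promoter peaks, with 9 fragments each, in coding sequence (48614462 to 48614593, fold 4.28) and in an untranslated exon (48613114 to 48613250, fold 4.48). HOXB9 had 3 peaks in its intron. The one nearest its 5' end, at 932 bp, had the highest fold in the cluster, 5.36 from 13 fragments (48625289 to 48625467). Only 439 bp away lay the peak with the lowest fold of all HOX peaks, 2.95 from 11 fragments (48624796 to 48625000), over a background of 3.07 fragments against 1.61. The last of the 3 (48623331 to 48623475) had a fold of 4.26 from 11 fragments.

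A long HOXB7 transcript runs over HOXB8 and HOXB9. HOXB7 therefore counted 6 peaks, of which 1 belonged to no other HOX gene (48620112 to 48620311, fold 3.09, 10 fragments). None lay within 1 kb of a TSS of HOXB7. The nearest was a peak outside every listed gene, 1182 bp upstream of HOXB7 (48634706 to 48635020, fold 4.99, 12 fragments). It is the HOXB peak that lies just outside the 1 kb limit. The other HOXB summits outside the listed genes (48646067 to 48646217 and 48722625 to 48722871) had folds of 3.94 and 3.90.

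HOXC had peaks at 4 of 9 genes (44.4%, 13.7 to 78.8%). HOXC6 had 5, in a gene of 40200 bp whose long transcripts start near HOXC10. The one of highest fold, 6.24 (chromosome 12, 54004909 to 54005206, 13 fragments), lay 3873 bp upstream of HOXC8 and within 1 kb of no HOX TSS. Promoter peaks of HOXC6 lay 455 bp upstream of a TSS (54015371 to 54015615, fold 4.71, 7 fragments) and 620 bp downstream of another (54029032 to 54029186, fold 4.26, 12 fragments). The latter was shared with HOXC4. A peak near the start of the long HOXC6 transcripts (53992427 to 53992613, fold 4.75, 8 fragments) completed these with the peak of HOXC8. HOXC8, which acts in brachial motor neurons, had that peak in coding sequence (54009393 to 54009550, fold 3.92, 8 fragments).

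HOXC4 had 4 peaks, of which the one at a promoter (54053199 to 54053362, fold 4.47, 11 fragments) lay 501 bp upstream of a TSS. The others besides the shared one had folds of 5.28 (54047972 to 54048121, 9 fragments) and 3.504 (54031699 to 54031863, 6 fragments). The last of these lay 1336 bp upstream of HOXC5, which had no peak of its own. HOXC10 had a single peak, 537 bp upstream of the gene (53984493 to 53984637, fold 3.83, 7 fragments). HOXC9, HOXC11, HOXC12 and HOXC13 had none, and the first 45.7 kb of the cluster, with HOXC13, HOXC12 and HOXC11, held no summit.

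HOXD had the fewest peaks, at 2 of 9 genes (22.2%, 2.81 to 60.0%). HOXD11, which with HOXA11 shapes the forearm and kidney, had 1 peak in the body of a long transcript (chromosome 2, 176105585 to 176105774, fold 5.28, 10 fragments). HOXD3 had 1 in its coding sequence (176171627 to 176171823, fold 3.67, 6 fragments). None of the 9 genes had a promoter peak, against 31.6% of all protein-coding genes. The exact interval for such a count reaches 33.6%, so HOXD was not told apart from that share. The 66.0 kb between these summits, which holds HOXD10, HOXD9, HOXD8 and HOXD4, was the longest stretch without a summit among the clusters apart from the 76.5 kb before HOXB13. The remaining summit of the cluster (176175456 to 176175585, fold 4.50, 7 fragments) lay beyond HOXD3 in the non-coding gene HAGLR.

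HOX transcripts overlap, and 13 of the 32 peaks belonged to 2 HOX genes, 9 of them in HOXB. The 20 genes with a peak are thus not independent observations. By canonical transcripts, 8 peaks lay in coding sequence, 9 in introns, 1 in an untranslated exon and 14 outside these transcripts. When gene bodies were cut to the canonical transcript, HOXA10, HOXB7 and HOXD11 lost their peaks and 17 genes kept theirs. Around the nearest TSS, 10 of the 18 promoter peaks lay downstream and 8 upstream. Some of these TSSs are inside the genes, and 6 of the 14 genes with a promoter peak, HOXA7, HOXB2, HOXB3, HOXB6, HOXC4 and HOXC6, had none within 1 kb of the gene's 5' end.

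Anterior and posterior genes were compared by paralogue group, with groups 1 to 3 as anterior, 4 to 8 as central and 9 to 13 as posterior. A peak was found at 5 of 7 anterior genes (71.4%, 29.0 to 96.3%), 10 of 15 central genes (66.7%, 38.4 to 88.2%) and 5 of 16 posterior genes (31.2%, 11.02 to 58.7%). Promoter peaks followed the same order of the last 2 classes, with 3 of 7, 8 of 15 and 3 of 16. Posterior genes were the lowest class in both counts, but the intervals of the classes overlapped, and differences between classes were not tested. The shares over all protein-coding genes, 47.2% with any peak and 31.6% with a promoter peak, lay inside the intervals of all 3 classes. Per 10 kb, central genes held 1.47 peaks (0.896 to 2.27), anterior genes 0.763 (0.394 to 1.33) and posterior genes 0.759 (0.328 to 1.496), against 0.195 over all protein-coding genes. These rest on 20, 12 and 8 distinct peaks, and some of the 32 HOX peaks count in more than 1 class. The 3 peaks of HOXB9, for example, count as posterior and, through the long HOXB7 transcript, as central. The classes are thus not separate sets of peaks. Relative to the number given by GC content, the ratios were 2.09 for central (1.28 to 3.23), 1.29 for anterior (0.669 to 2.26) and 0.911 for posterior genes (0.393 to 1.79). The 1.26 of all protein-coding genes lay inside the intervals of the anterior and posterior classes and just below that of the central class.

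The posterior peaks were at HOXA9, HOXA10, HOXB9, HOXC10 and HOXD11. Groups 9 and 10 had peaks at 4 of 7 genes, and groups 11 to 13 at 1 of 9. No peak was found at the 6 genes of groups 12 and 13, HOXA13, HOXB13, HOXC12, HOXC13, HOXD12 and HOXD13, a count that allows a share of up to 50% by 3 counts of the total and 45.9% by the exact interval, against 47.2% of all protein-coding genes. These groups were singled out after their counts were seen. Group 13 genes act in the hindgut, limb ends and genital tract, and HOXB13 is known from prostate. At the other end, neither listed gene of group 1, HOXB1 and HOXD1, had a peak. The groups with a peak at every listed gene were 2 (HOXA2 and HOXB2), 3 (HOXA3, HOXB3 and HOXD3) and 7 (HOXA7 and HOXB7), and those at HOXA3 and HOXB7 depended on long transcripts. The class was not independent of the cluster, since HOXB holds 5 of the 15 central genes and 2 of the 16 posterior genes. In HOXB, all 5 central genes had a peak, in HOXC 3 of 4, in HOXA 2 of 4 and in HOXD 0 of 2. Posterior genes had peaks at 2 of 4 in HOXA, 1 of 2 in HOXB, 1 of 5 in HOXC and 1 of 5 in HOXD.

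**Figure D3:**
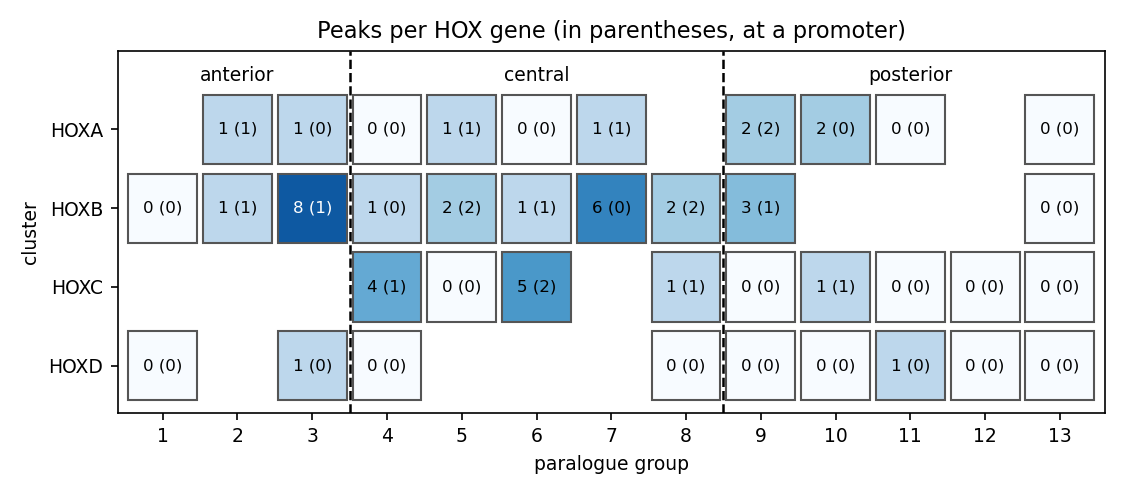
Number of peaks at each HOX gene, by paralogue group (horizontal axis) and cluster (vertical axis), with the number at a promoter in parentheses; gaps are groups without a listed gene. HOXB3 has 8 peaks, and groups 12 and 13 have none.

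Of the 18 genes without a peak, 8 had no summit within 10 kb of any of their TSSs. HOXD8 was farthest, at 23961 bp, followed by HOXD4 at 20215 bp and HOXC12 at 20122 bp. HOXC5, at 1336 bp, and HOXC9, at 2388 bp, were nearest and would have had a peak with a window of 3 kb. HOXC9 specifies thoracic and HOXD10 lumbar motor neurons, and the nearest summit to a TSS of HOXD10 was 3057 bp away.

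Peaks at HOX genes were of ordinary size for this list. Their fold had a median of 4.38 (3.93 to 4.75) against 4.18 for all peaks, their pileup 10.5 fragments against 10, and their width 177 bp (145 to 200) against 185 bp. In 8 of the 32 (25%) the fold was at least 5, against 18.0% of all peaks. The fold, pileup, p and q of a peak are the authors' values, and they rank peaks within the list only. The background, recovered from fold and pileup, had a median of 1.47 fragments against 1.54 for all peaks. It differed between clusters, with medians of 1.84 at the HOXB peaks, 1.09 in HOXC, 1.07 in HOXA and 0.995 in HOXD. It was above 2 fragments at 7 of 15 HOXB peaks and at 1 of the 17 other HOX peaks. Over all peaks of a chromosome the median background was 2.05 fragments on chromosome 17, 1.34 on chromosome 7, 1.19 on chromosome 12 and 1.12 on chromosome 2. Folds of HOXB peaks (median 4.26) and HOXA peaks (median 4.91) therefore rest on different backgrounds, and their part in the number of peaks called was not tested.

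**Figure D4:**
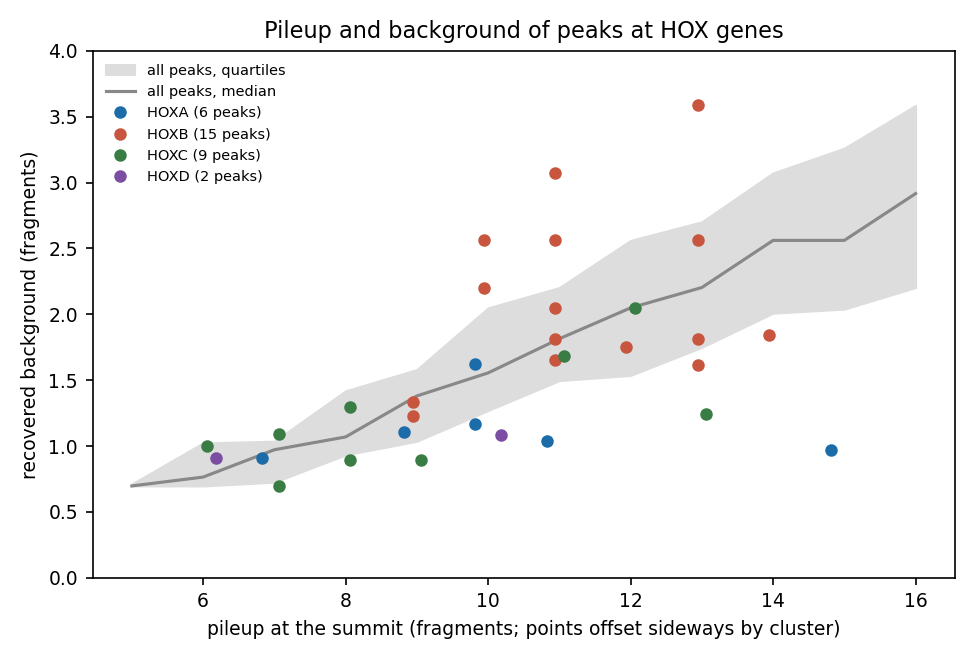
Recovered background against pileup at the summit, both in fragments, for the 32 peaks at HOX genes, over the median and quartiles of all peaks with the same pileup. Points of HOXB reach a background of 3.59 fragments, and the HOXA2 peak stands alone at 15 fragments over 0.972.

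HOX peaks stood higher than the list as a whole in CpG content. The 400 bp centred on their summits held a median of 22.5 CG dinucleotides (14 to 31), against 10 for all peaks and 15 for all promoter peaks. The ratio of observed to expected CpG had a median of 0.613 (0.403 to 0.735) against 0.298, while the GC content was similar, 60.8% (57.0 to 64.0%) against 59.5%. Sequence was called CpG-rich if its GC content was above 50% and its CpG ratio above 0.6. By this measure 18 of 32 HOX peaks (56.2%, 37.7 to 73.6%) were CpG-rich, against 13.3% of all peaks and 15.5% of peaks at protein-coding genes. Among promoter peaks alone, 13 of 18 at HOX genes (72.2%, 46.5 to 90.3%) and 32.1% of all were CpG-rich. The share was 11 of 15 in HOXB and 5 of 6 in HOXA, but 1 of 9 in HOXC and 1 of 2 in HOXD.

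CpG-rich sequence is itself abundant in the clusters, where it made up 31.1% of HOXA, 24.7% of HOXD, 20.1% of HOXC and 14.97% of HOXB, against 1.31% of the genome. Per 10 kb of that sequence, HOXB had 4.00 CpG-rich summits (2.07 to 6.99), HOXA 1.60 (0.520 to 3.74), HOXC 0.424 (0.0107 to 2.36) and HOXD 0.410 (0.0104 to 2.28). Summits were called CpG-rich by the 400 bp centred on them and the sequence by fixed 400-bp windows, so a counted summit need not lie in a counted window. The genome had 1.16 per 10 kb of CpG-rich sequence, so that HOXB alone was above it beyond counting error, and the other 3 clusters were not told apart from it. This comparison too was made over all peaks and not at stricter thresholds.

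Promoter peaks were then set against the CpG content of the gene starts, taken over the 400 bp centred on each 5' end. Of 22 HOX genes with a CpG-rich 5' end, 4 had a promoter peak (18.2%, 5.19 to 40.3%), namely HOXA5, HOXB9, HOXC8 and HOXC10. Of the other 16 HOX genes, 10 had one (62.5%, 35.4 to 84.8%). The intervals of the shares overlapped from 35.4 to 40.3%, which does not measure the difference between the shares, and that difference was not tested. Over all protein-coding genes the larger share was that of CpG-rich 5' ends, 37.3% against 23.3% of the others. With a peak within 1 kb of the gene's 5' end alone, the HOX counts were 4 of 22 and 4 of 16 (18.2% and 25%, the latter with an interval of 7.27 to 52.4%). The same measure over all protein-coding genes was 25.2% for CpG-rich and 10.4% for other 5' ends, and both lay inside the HOX intervals. The 6 other genes without a CpG-rich 5' end had their promoter peaks at internal TSSs only. All 6 genes of groups 12 and 13 had a CpG-rich 5' end, as did 13 of 16 posterior, 6 of 15 central and 3 of 7 anterior genes.

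**Figure D5:**
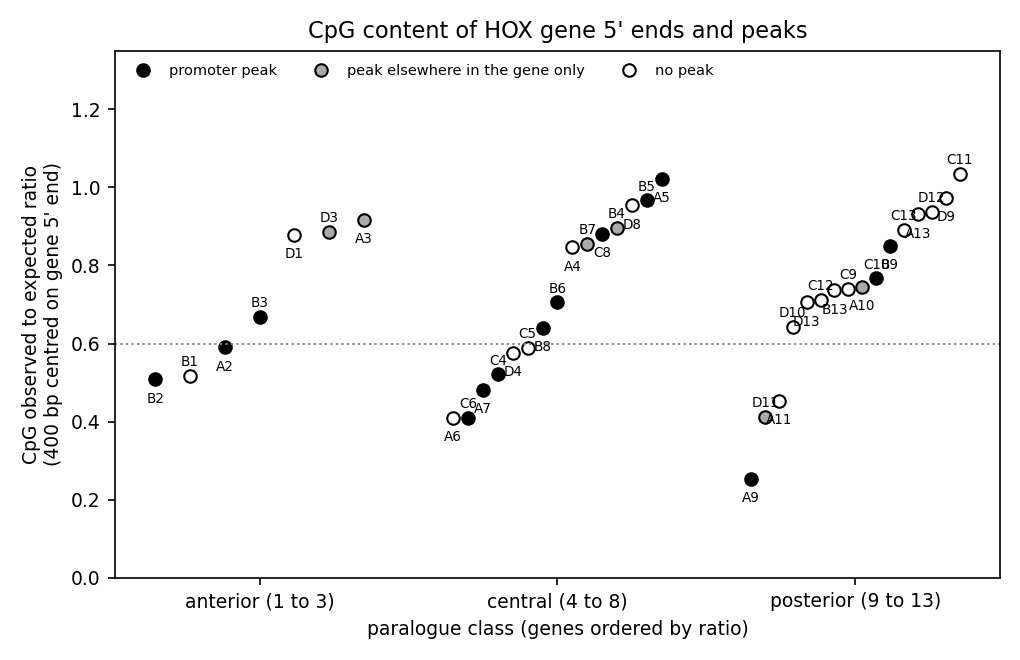
Ratio of observed to expected CpG in the 400 bp centred on the 5' end of each HOX gene (vertical axis), by paralogue class; filled points have a promoter peak, grey points a peak elsewhere in the gene only, and open points none. Open points crowd the posterior class above the dotted line at 0.6, which is the CpG part of the CpG-rich definition.

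Short motifs were sought by exact letters, on both strands, in the 400 bp centred on each summit. The letters GGGCGG, bound by SP factors, were in 14 of 32 HOX peaks (43.8%), in 30.5% of all peaks and in 59.2% of windows at the 5' ends of protein-coding genes. GAGAG was in 26 (81.2%) and in 72.6% of all peaks and 71.9% of 5' ends. TAATTA, a core homeodomain motif, was in 1 (3.12%), the peak of HOXA5, and in 2.19% of all peaks and 4.11% of 5' ends. TGATTGAT and TGATTTAT, both PBX-HOX motifs, were in none of the 32 and in 0.381% and 0.444% of all peaks. At 5' ends they were in 0.491% and 0.806%. A core motif of CTCF was in none, in 0.0360% of all peaks and in 0.0601% of 5' ends. These shares describe the windows only.

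Non-coding genes lie between and across the HOX genes. Of the 32 peaks, 12 had their summit in a named long non-coding RNA or microRNA gene. Non-coding genes without a name were not counted. Of 23 listed non-coding genes, 5 had a promoter peak (21.7%, 7.46 to 43.7%) and 10 any peak (43.5%), near the 31.6% and 47.2% of protein-coding genes. Those of highest fold at a promoter were HOTAIRM1 (fold 5.71), HOXB-AS3 (5.28), MIR196A2, the gene of a microRNA that targets HOX transcripts (4.75), and HOXC-AS3 (3.83), besides 1 of lower fold. HOXB-AS3 runs antisense through HOXB3 to HOXB6 and contained 8 peaks. Peaks carry no strand, so a peak at overlapping genes cannot be given to one of them. Looked at after their values were seen, HOTAIR, the long RNA of the HOXC cluster, had no peak, and HOTTIP, at the end of HOXA, had 1 outside its promoter.

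Of the nearest protein-coding genes on either side of the clusters, EVX1 beyond HOXA13 had no peak, and EVX2 beyond HOXD13 had 1 (fold 4.84) outside its promoters. SKAP2, LNPK, MTX2, HNRNPA3, ATP5MC2 and CBX5 had none. Around HOXB, SKAP1, SNX11, TTLL6 and CALCOCO2 each had 1 promoter peak, with folds of 4.03, 4.43, 4.53 and 4.84. Over all protein-coding genes the share with a promoter peak was 31.6%, and the flanking genes of a cluster are too few to compare with it. SNX10 and HIBADH beside HOXA had 1 each (folds 4.12 and 7.07), CALCOCO1 beside HOXC had 1 (3.93), and SMUG1 had 1 peak outside its promoters.

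Genes that act with or on HOX genes were described from listed sets. The HOX cofactors, which bind DNA together with HOX proteins, had a promoter peak at 2 of 9 genes (22.2%), PBX3 (fold 4.94) and MEIS3 (4.47). Of other homeobox genes related to HOX, 1 of 15 had one (6.67%, 0.169 to 31.9%), MEOX1 (4.94). The regulators of the clusters followed. Polycomb genes had a promoter peak at 14 of 22 (63.6%, 40.7 to 82.8%), with the highest folds at PHC3 (6.48), CBX8 (5.46), PCGF2 (4.95) and EZH1 (4.83). Trithorax and H3K27 demethylase genes had one at 10 of 14 (71.4%, 41.9 to 91.6%), led by KMT2A (6.46), KMT2B (6.46), KMT2D (5.86) and KDM6B (5.10). KMT2A, the methyltransferase known for keeping HOX genes active, had its peak 99 bp from the gene's 5' end. The background over protein-coding genes was 31.6%, and gene length and base composition were not taken into account in these shares.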

How the data were processed

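One H4R3me2a and 1 input library of HCT116 cells were compared. The submitters' processing notes name Bowtie2, MACS2, deepTools and GRCh38, and versions, parameters and read numbers were not given in the sources used here. Per the file headers, the deposited peak table gives for each of 33353 peaks the pileup signal at the summit (fragments, not normalized), the fold as a ratio over local background, and the −log10 of p and q; the deposited interval list repeats these and adds a score, and a summary of the authors gives lengths. Background was recovered as (pileup + 1) / fold − 1; with it a Poisson tail gave back the deposited −log10 p within 0.05 for all 33353 peaks.

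Coordinates are 1-based on GRCh38, with GENCODE release 44; no peak passed a chromosome end. The symbol rule finds 39 genes, of which 38 are reported, and 1 HOXA gene is not reported here. The members, gene lists, motifs and classes were chosen with earlier results of these data known. All listed HOX genes and all peaks at them were named, and up to 4 genes of other lists by promoter fold. GC-based numbers used 400-bp windows in bins of 10 percentage points. Intervals are exact at 95% (Clopper-Pearson, Poisson, binomial ranks for medians). With 1 library a group, no p-value was computed. The assignment of peaks was tested on simulated data. Analyses used Python 3.11.15, numpy 2.4.6, pandas 2.3.3 and scipy 1.17.1.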

Additional observations from a re-analysis of the deposited data

How the results depend on the processing

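Among the values recomputed under alternatives, 81 stayed within 1.5 times the main count or inside the main interval, and 24 did not. The number of peaks depended most on the threshold. With a −log10 q of 5 or more, 2 HOX genes (HOXA2 and HOXC6) and 2 peaks were left, 1 gene with a promoter peak, a median fold of 7.18, 1 anterior, 1 central and 0 posterior genes, and 0.100, 0, 0.0853 and 0 summits per 10 kb in HOXA, HOXB, HOXC and HOXD. The loss was not particular to HOX genes. Of the HOX peaks 6.25% passed this cut, against 3.84% of all peaks and 4.24% of peaks at protein-coding genes. With a fold of 4 or more, 13 genes (3 anterior, 6 central and 4 posterior), 21 peaks and 9 genes with a promoter peak were left. The median fold of all peaks was 4.18. HOXB fell to 0.449 per 10 kb, below HOXA and HOXC. Keeping the upper 50% of peaks by −log10 q, 14 genes (3 anterior, 7 central and 4 posterior) and 20 peaks were left. HOXB was at 0.499 per 10 kb, again below HOXA and HOXC. Genes with a promoter peak numbered 7 with a 500 bp window, where HOXA2 and HOXC10 lost their only peak, and 8 with gene 5' ends alone. With canonical transcripts as gene bodies, 3 posterior genes had a peak. HOXB without the gap before HOXB13 had 1.43 per 10 kb and differed from HOXD, kept at its full length, beyond counting error. That contrast was computed over all peaks only. Merging and leaving out readthrough transcripts kept all 20 genes. Overlap of whole peaks, which by its definition cannot lose a gene, added none. Ratios to GC content with finer bins or with CpG content, added after seeing the data, stayed inside their intervals. These ratios were not computed at stricter thresholds. No paired analysis was possible because each group has 1 library. The pileups, of 6 to 15 fragments, limit what the counts of single genes can show.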
